A study of Mus musculus with 3 samples.

Results

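The genes described here encode chemokines, chemokine receptors, interleukins, Lif and the colony stimulating factors, and they were taken as the probe sets whose single annotated gene symbol has the form of one of these names. This gave 124 of 45101 probe sets and 82 of 18193 genes. Their RNA was measured in a mouse mesenchymal line, C3H10T1/2, on 1 Affymetrix whole-genome mouse array for each of 3 conditions. These were cells transduced with a retrovirus carrying Venus-Mkx (Mkx, or Mohawk, is a homeobox transcription factor of tendon and annulus fibrosus), cells transduced with the same vector carrying the fluorescent protein Venus alone, and C3H10T1/2 cells with no vector. All were grown in the same medium with serum, and by the methods both transductions were done in medium with puromycin. Nothing in the labels gives the number of cultures behind an array, the time after infection or whether the cells were sorted. With 1 array per condition no difference has a replicate check, and no p-value is given. In RNA from whole cultures, fewer cells of a kind and less RNA per cell cannot be told apart.

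Chemokines are small secreted proteins that guide migrating cells along gradients. They are named by the spacing of their first cysteines (CC, CXC, CX3C) and act through receptors that couple to G proteins, whereas atypical receptors bind chemokines without G protein signalling and remove them. Interleukins and colony stimulating factors are secreted signals between cells, most of which act through receptors that switch on JAK kinases and STAT factors, or in the IL-1 and IL-17 families NF-kB. Fibroblasts and mesenchymal stromal cells are known as sources of Cxcl12, Ccl2, Il6, Il7 and Csf1, by which they hold or attract blood cells.

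The probe set of Mkx read a log2 value of 2.71 on the array labelled Venus-Mkx, against 7.43 in Venus and 6.88 in C3H10T1/2. Because this runs counter to the label, the condition is referred to by its label only, and each direction given for it rests on that label. It is not known whether the probe set lies in the Mkx coding sequence of the vector, and if it does not, it checks nothing. Values are given as log2 signal. A floor of 4.34 was set at the median over all probe sets and arrays, values under it were not separated from background, and a gene was counted as measured when at least 1 array reached the floor. Each gene was represented by its brightest probe set, by the mean of the 3 arrays. To be called higher or lower, a gene had to be at least 2-fold (a log2 difference of 1) away from both control arrays in one direction. Where one side of a fold lay under the floor, the floor was put in its place and the fold is given as "at least". Of the mesenchymal markers, 10 of 11 on the array were measured, among them Pdgfra, Pdgfrb, Prrx1, Vim and Col1a2, and only Nt5e was below the floor on all 3 arrays. Col1a1, a type I collagen gene, read 13.22 on the array labelled Venus-Mkx, against 11.88 in Venus and 11.52 in C3H10T1/2, and was called higher, as was Thy1. The values of different probe sets were not compared with each other as levels.

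Most genes of the set were not measured in these cells. Of the 82 genes, 25 were measured (30.5%, against 61.4% of all 18193 genes) and 57 were below the floor on all 3 arrays. Of the 124 probe sets, 36 held exactly the same value on all 3 arrays, and 34 of these were below the floor. Of the 25 measured genes, 15 were at or above the floor on every array. Of the 25, the array labelled Venus-Mkx was at least 2-fold above both controls for 7 genes: Cxcl10, Il7, Ccl5, Ccl2, Lif, Ccl7 and Il16. It was at least 2-fold below both for 2 genes, Ccl9 and Cxcl12. The share called higher was 28%, against 6.82% of all 11169 measured genes, and the share called lower was 8%, against 5.34%. Both counts stayed at 7 and 2 with every value under the floor raised to it, where the shares over all measured genes were 6.22% and 4.97%. Cxcl10, Il7, Lif, Cxcl13 and Il33 exceeded the floor in 1 condition only, the array labelled Venus-Mkx, so a call of any of these could only be higher. Among the 20 genes that reached the floor on a control array, 4 were called higher (Ccl2, Ccl5, Ccl7 and Il16), a share of 20% against 5.14% of 10844 genes, and 2 were called lower, a share of 10% against 5.5%. The median log2 difference from Venus was 0.29 over the 25 genes, with 15 above 0 and 10 below, and 0.00 over all measured genes. The 0.29 takes in the 5 genes above the floor only on the array labelled Venus-Mkx, whose differences could only be positive. The median without them was not computed.

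**Figure D1:**
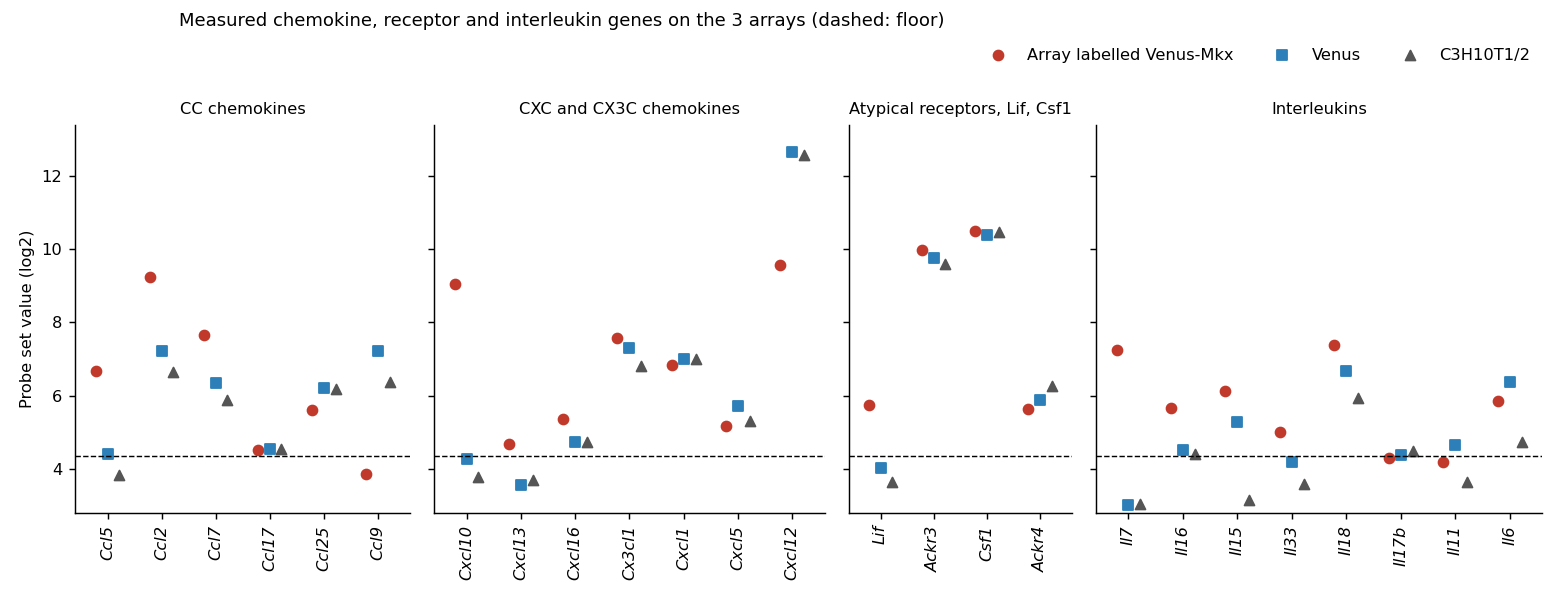
Log2 values of the 25 measured genes on the array labelled Venus-Mkx (circles), the Venus array (squares) and the C3H10T1/2 array (triangles), with 1 array per condition, the floor of 4.34 as a dashed line and the genes of each panel ordered by their difference from Venus. Circles stand far above both controls for Cxcl10 and Il7 and far below them for Ccl9 and Cxcl12, while Csf1 and Ackr3 read nearly the same on all 3 arrays.

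The promoters of the genes with the largest differences are shown first, with the letters of 3 known motifs in capitals. The windows run from 250 bases before the start of the gene to 50 after it, as RefSeq gives them in GRCm38.p6, and no entry for Il7 was used here. Cxcl10 lies on the minus strand of chr5:92348840-92349139, Ccl9 on the minus strand of chr11:83578587-83578886 and Cxcl12 on the plus strand of chr6:117168285-117168584.
Cxcl10: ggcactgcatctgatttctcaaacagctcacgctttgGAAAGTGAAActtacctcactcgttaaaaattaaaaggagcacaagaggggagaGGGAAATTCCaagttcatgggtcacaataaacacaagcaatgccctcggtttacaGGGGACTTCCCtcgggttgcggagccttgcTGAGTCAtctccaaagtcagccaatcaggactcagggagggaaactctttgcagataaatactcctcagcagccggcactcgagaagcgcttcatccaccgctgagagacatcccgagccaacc
Ccl9: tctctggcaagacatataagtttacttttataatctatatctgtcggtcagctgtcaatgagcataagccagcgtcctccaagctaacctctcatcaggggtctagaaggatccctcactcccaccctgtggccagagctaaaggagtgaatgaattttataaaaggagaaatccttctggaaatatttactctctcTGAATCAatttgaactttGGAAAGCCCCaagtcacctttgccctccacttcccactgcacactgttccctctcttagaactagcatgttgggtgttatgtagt
Cxcl12: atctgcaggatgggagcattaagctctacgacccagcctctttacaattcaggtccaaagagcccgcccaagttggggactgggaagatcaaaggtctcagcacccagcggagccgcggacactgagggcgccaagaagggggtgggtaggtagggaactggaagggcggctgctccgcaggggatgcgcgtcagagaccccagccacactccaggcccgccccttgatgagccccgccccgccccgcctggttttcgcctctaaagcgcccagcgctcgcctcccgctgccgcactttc
Capitals mark matches on either strand to the interferon-stimulated response element (ISRE) as GAAANNGAAA, to the NF-kB consensus and to the AP-1 site as TGANTCA. In the Cxcl10 window the ISRE letters began at base -213 from the start, NF-kB matches at -159 and, overlapping each other, at -104 and -103, and an AP-1 match at -74. In the Ccl9 window an AP-1 match began at -53 and an NF-kB match at -35. The AP-1 letters used here allow any middle base, which was A in Ccl9 and G in Cxcl10. None of the 3 motifs was found in the Cxcl12 window. The ISRE letters stood in 3.44% of 32851 promoter windows of the table, the NF-kB consensus in 8.46% and the AP-1 letters in 7.81%. Of the 7 higher genes, 3 had a window in the table (Cxcl10, Lif and Il16, the last with 3 windows). Cxcl10 and Lif each held an NF-kB and an AP-1 match in the same window, while Il16 held them in different windows. Cxcl10 alone held the ISRE letters. A gene was counted if any of its windows matched, whereas the shares of 3.44%, 8.46% and 7.81% are per window. Of the 16 measured genes called neither, 12 had a window, of which none held the ISRE letters, 3 held the NF-kB consensus (Csf1, Cxcl1 and Il6) and 2 the AP-1 letters (Il11 and Il6). These matches are descriptions of the letters only.

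Among the CC chemokines, 3 of 6 measured genes were higher and 1 was lower, beside 6.82% higher and 5.34% lower over all measured genes. Ccl2, which draws monocytes through the receptor CCR2, read 9.23 on the array labelled Venus-Mkx, against 7.23 in Venus and 6.65 in C3H10T1/2. It was thus 4.02-fold above Venus and 6.01-fold above C3H10T1/2, and all 3 values were above the floor. Ccl7, another ligand of CCR2, read 7.66, against 6.35 in Venus and 5.88 in C3H10T1/2, which is 2.48-fold and 3.44-fold higher. Ccl2 and Ccl7 are direct neighbours on chromosome 11, and the next genes of that cluster in order, Ccl11, Ccl12, Ccl8 and Ccl1, were below the floor on all 3 arrays. Ccl5 (RANTES), which draws T cells and monocytes, read 6.67, against 4.41 in Venus and 3.83 in C3H10T1/2. It was 4.77-fold above Venus and at least 5.01-fold above C3H10T1/2. For Ccl2 and Ccl7 the Venus array lay between the others, 0.58 and 0.47 above C3H10T1/2 on the log2 scale. For Ccl5, whose C3H10T1/2 value was under the floor, that difference was at least 0.07. Ccl9, a ligand of CCR1 in the mouse, went the other way and read 3.87 on the array labelled Venus-Mkx, against 7.22 in Venus and 6.38 in C3H10T1/2. This is at least 7.33-fold below Venus and at least 4.11-fold below C3H10T1/2. Its second probe set read 3.12 on the array labelled Venus-Mkx, also under the floor, against 6.43 in Venus and 5.57 in C3H10T1/2, and was at least 4.24-fold and at least 2.35-fold lower. Ccl9 is the direct neighbour of Ccl5 on chromosome 11, so adjacent genes differed in opposite directions, and the next genes after it, Ccl6, Ccl3 and Ccl4, were below the floor throughout. Ccl25, a chemokine of thymus and gut, read 5.62, against 6.22 in Venus and 6.19 in C3H10T1/2, and was not called. Its other probe set read 4.27, under the floor, against 5.12 in Venus and 5.16 in C3H10T1/2. That is at least 1.71-fold and at least 1.76-fold lower, also short of a call. Ccl17, a ligand of CCR4, differed by -0.03 from each control. The remaining 11 CC chemokine genes were below the floor, with values from 2.11 to 3.92.

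Of the 6 measured CXC chemokines, Cxcl10 was higher and Cxcl12 was lower, beside 6.82% higher and 5.34% lower over all measured genes. Cxcl10 (IP-10), a ligand of CXCR3 that interferons are known to induce, read 9.06 on the array labelled Venus-Mkx, against 4.27 in Venus and 3.78 in C3H10T1/2. Both controls were below the floor, so the gene was at least 26.3-fold higher than each. The other ligands of CXCR3, Cxcl9 and Cxcl11, lie on either side of it on chromosome 5 and were below the floor on all 3 arrays. Cxcl12 (SDF-1), which retains stem and progenitor cells through CXCR4, had 2 measured probe sets, and both were lower. The brightest read 9.58 on the array labelled Venus-Mkx, against 12.67 in Venus and 12.58 in C3H10T1/2, an 8.50-fold and an 8.03-fold difference. The next read 7.47, against 11.10 in Venus and 11.22 in C3H10T1/2, and the third was below the floor throughout. The control arrays thus lay close together for Cxcl12, 0.08 and -0.12 apart, and both measured probe sets were still above the floor on the third array. Cxcl1, a ligand of CXCR2 that draws neutrophils, was not called, but its probe sets disagreed. The one used differed by -0.16 from each control and is of a kind (_x_at) that can bind other transcripts. Another read 4.77, against 6.51 in Venus and 6.44 in C3H10T1/2, a difference of -1.73 and -1.66, and it would be called lower. Cxcl5, another ligand of CXCR2, read 5.16, against 5.72 in Venus and 5.30 in C3H10T1/2, and Cxcl2, Cxcl3 and Cxcl15 were below the floor. Cxcl13, which guides B cells, lay just outside the call: it read 4.68, against 3.54 in Venus and 3.69 in C3H10T1/2, where only a 1.27-fold difference is shown above the floor. Its other probe set read under the floor on all 3 arrays. Cxcl16, a transmembrane chemokine, read 5.36, against 4.72 on both control arrays. Its other probe set read 4.41, against 3.25 in Venus and 2.95 in C3H10T1/2. Cx3cl1 (fractalkine), also anchored in the membrane, read 7.58, against 7.29 in Venus and 6.80 in C3H10T1/2.

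None of the 15 genes of chemokine receptors that couple to G proteins was measured. Their probe sets in use ran from 2.00 to 4.25, and this covers Ccr2 (receptor of Ccl2 and Ccl7), Ccr1 (of Ccl9), Cxcr3 (of Cxcl10) and Cxcr4 (of Cxcl12). Cxcr4 read 2.40, against 2.40 in Venus and 2.36 in C3H10T1/2. Of the atypical receptors, Ackr3, which takes up Cxcl12, was measured and read 9.98, against 9.77 in Venus and 9.60 in C3H10T1/2. Ackr3 was thus not called, whereas its ligand Cxcl12 was. Ackr4, which takes up Ccl25 among others, read 5.64, against 5.87 in Venus and 6.27 in C3H10T1/2, and Ackr1 and Ackr2 were below the floor.

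**Figure D2:**
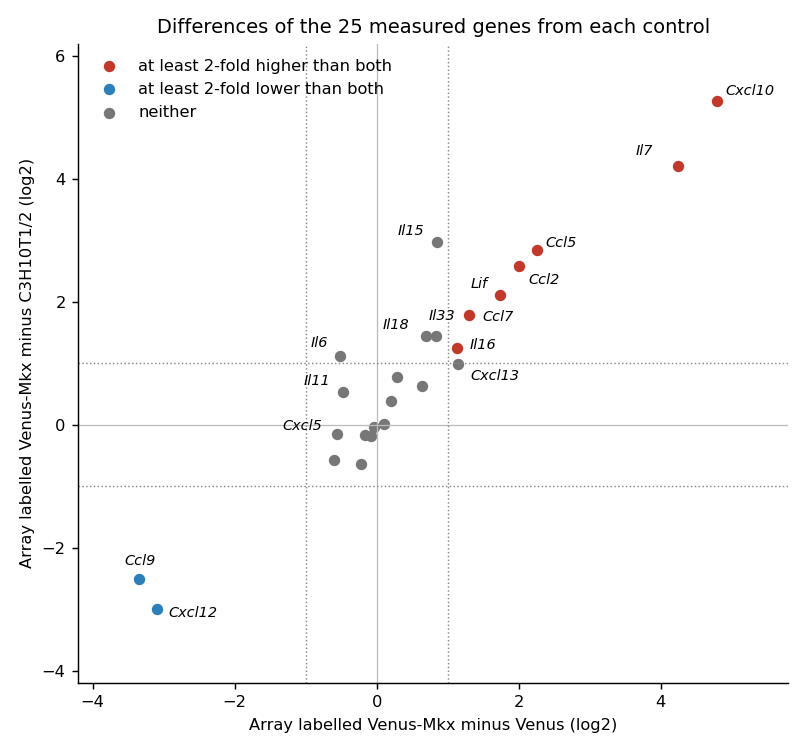
Log2 difference of the array labelled Venus-Mkx from Venus (horizontal axis) and from C3H10T1/2 (vertical axis) for the 25 measured genes, values as read, 1 array per condition, with dotted lines at a 2-fold difference. The 7 higher genes lie in the upper right corner with Cxcl10 outermost, Ccl9 and Cxcl12 stand alone at the lower left, and Il15, Il18, Il33 and Il6 lie past 2-fold against C3H10T1/2 only. Both axes share the same Venus-Mkx value.

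Of the 8 measured interleukins, Il7 and Il16 were higher and none was lower, beside 6.82% higher and 5.34% lower over all measured genes. Il7 and Il33 exceeded the floor only on the array labelled Venus-Mkx, so neither could be called lower. Il7, a stromal survival factor for lymphocytes, read 7.25 on the array labelled Venus-Mkx, against 2.997 in Venus and 3.04 in C3H10T1/2. It was at least 7.50-fold above each control, and the second probe set read 4.90, against 2.13 on both control arrays. The probe set in use for Il7r, which encodes its receptor chain, was below the floor on all 3 arrays. Il16, a chemoattractant released from a longer precursor, read 5.66 by the probe set used, against 4.52 in Venus and 4.41 in C3H10T1/2, a 2.20-fold and a 2.39-fold difference. The other measured probe sets of Il16 gave less: one was 0.66 above Venus and 0.36 above C3H10T1/2 on the log2 scale, and another held one value on all arrays. Il18, an activator of interferon gamma release that cells store as a precursor, read 7.38, against 6.68 in Venus and 5.94 in C3H10T1/2. It was 1.62-fold above Venus and 2.72-fold above C3H10T1/2, and was not called. Il33, a nuclear alarmin, read 5.01, against 4.18 in Venus and 3.58 in C3H10T1/2, at least 1.59-fold above each. Il17b read between 4.28 and 4.47 on all 3 arrays. The other 19 interleukin genes, among them Il1a, Il1b, Il4, Il10 and Il17a, were below the floor, with values from 2.03 to 3.91.

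Between the controls, only Il6 was shown to be at least 2-fold higher in Venus than in C3H10T1/2 with low values at the floor, which is 4% of 25 genes, against 1.19% of all measured genes. By the values as read, Il11 and Il15 were also past 2-fold, and none was at least 2-fold lower. These 3 genes are 12% of 25, against 1.49% of all measured genes for higher and 0.555% for lower. Il6, an inflammatory cytokine that signals through gp130, read 6.36 in Venus, against 4.73 in C3H10T1/2, a 3.09-fold difference with both values above the floor. It read 5.84 on the array labelled Venus-Mkx, below Venus by 0.52 and above C3H10T1/2 by 1.11. Il15, a growth factor of natural killer cells and memory T cells, read 5.27 in Venus, against 3.14 in C3H10T1/2, so it was at least 1.90-fold higher. It was highest on the array labelled Venus-Mkx, at 6.12, which is 1.80-fold above Venus and at least 3.42-fold above C3H10T1/2. Il11, another ligand that uses gp130, read 4.65 in Venus, against 3.64 in C3H10T1/2, where only a 1.24-fold difference is shown above the floor. Its value of 4.18 on the array labelled Venus-Mkx was under the floor. With 1 array of each, transduction and the choice of culture cannot be told apart here.

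Lif, a ligand of gp130 that keeps mouse embryonic stem cells undifferentiated, was higher, and Csf1, the growth factor of macrophages, was not. Lif read 5.75 on the array labelled Venus-Mkx, against 4.02 in Venus and 3.64 in C3H10T1/2, at least 2.66-fold above each. Its second probe set was below the floor throughout, and over the mean of both the difference from Venus was 0.9977, just under the threshold, so the call was lost. Csf1 read 10.50, against 10.40 in Venus and 10.49 in C3H10T1/2. Its other 3 probe sets, all measured, differed from Venus by 0.00 to 0.48. Csf2 and Csf3, which encode GM-CSF and G-CSF, were below the floor on all 3 arrays.

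**Figure D3:**
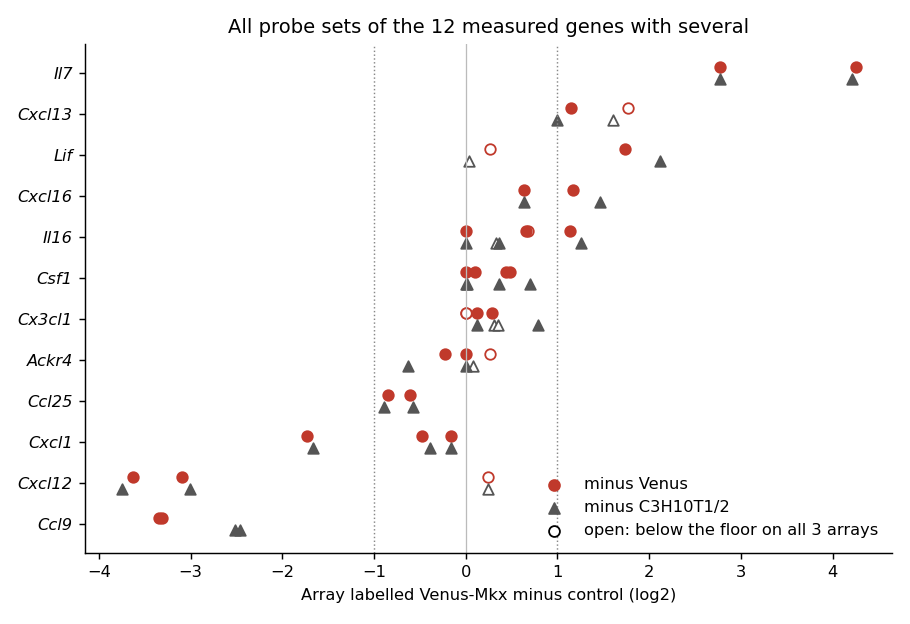
Log2 difference of the array labelled Venus-Mkx from Venus (circles) and from C3H10T1/2 (triangles) for every probe set of the 12 measured genes that have several, with open symbols for probe sets below the floor on all 3 arrays and dotted lines at a 2-fold difference. The measured probe sets of Ccl9, Cxcl12 and Il7 all lie past 2-fold on one side, whereas those of Cxcl1, Cxcl16 and Il16 fall on both sides of the line.

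The receptors and inhibitors of these signals were read from lists of related genes that are no members of the set. Of 17 measured receptor chains for interleukins and colony stimulating factors, 7 were higher, none was lower and 10 were neither, with a median difference from Venus of 0.68. Over all measured genes, 6.82% were higher and 5.34% lower. Il15ra, which presents Il15 to neighbouring cells, read 7.76 on the array labelled Venus-Mkx, against 4.97 in Venus and 5.10 in C3H10T1/2, so both Il15 and its receptor were highest there. Il13ra1 differed by 2.04 from each control, and Il4ra read 7.71, against 5.74 in Venus and 5.53 in C3H10T1/2. These chains pair to bind Il4 and Il13, whose own genes were below the floor. Lifr, the receptor of Lif, read 9.49, against 7.80 in Venus and 7.59 in C3H10T1/2, and Osmr, Csf1r and Il17rd were also called higher. Il6st, which encodes gp130, read 10.24, against 10.12 in Venus and 10.06 in C3H10T1/2, and was not called. Among 3 measured genes for decoys and soluble inhibitors, Il18bp, which neutralizes Il18, was higher by 4.28 and 3.94. Il1rn, the natural antagonist of the IL-1 receptor, was lower, at 6.54 against 10.34 in Venus and 10.97 in C3H10T1/2, while Il1a and Il1b were below the floor. Tnfrsf11b (osteoprotegerin), which binds RANKL, was also lower, with log2 differences of -4.51 and -3.64. Of 8 measured genes of the SOCS family, which limit JAK and STAT signalling, Socs3 was higher, at 11.48 against 9.54 in Venus and 9.19 in C3H10T1/2. Socs1 lay at the edge of the call with 1.06 and 0.99. None of 5 measured other genes of the chemokine system was called, and Cd74, a receptor of Mif, differed by 0.75 from each control.

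Cxcl10 and Ccl5 are known targets of interferon and of NF-kB, so genes of both responses were read beside them. All 11 measured interferon response genes were called higher, against 6.82% of all measured genes, with a median difference of 3.49 from Venus and 4.63 from C3H10T1/2. By the values as read, 6 of them were also at least 2-fold higher in Venus than in C3H10T1/2. The share over all measured genes was 1.49%. These differences ran from 2.83-fold for Irf9 to at least 17.6-fold for Ifit1. The rest of the 11 genes were less than 2-fold apart between the controls. Ifit1 read 11.97 on the array labelled Venus-Mkx, against 8.48 in Venus and 2.90 in C3H10T1/2, the last under the floor. Irf7, a transcription factor that amplifies this response, read 8.71 on the array labelled Venus-Mkx, against 4.72 in Venus and 4.13 in C3H10T1/2. Rsad2, an antiviral enzyme, read 8.53, against 3.87 in Venus and 4.02 in C3H10T1/2, both under the floor. Neither Irf7 nor Rsad2 was among the 6 genes higher in Venus than in C3H10T1/2. Of 14 measured NF-kB response genes, Bcl3 and Birc3 were higher, Ptx3 was lower and 11 were neither, with a median of 0.05 from Venus, beside the shares of 6.82% higher and 5.34% lower over all measured genes. Bcl3 read 7.83 on the array labelled Venus-Mkx, against 4.12 in Venus and 4.65 in C3H10T1/2. It was at least 11.2-fold above Venus and 9.09-fold above C3H10T1/2. Ptx3, a secreted pattern recognition protein, read 6.92, against 12.37 in Venus and 12.70 in C3H10T1/2. Nfkbia, an inhibitor that NF-kB itself induces, differed by 0.66 and 0.74, and Tnf was below the floor on all 3 arrays. The part of the interferon response in the chemokine values was not tested.

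**Figure D4:**
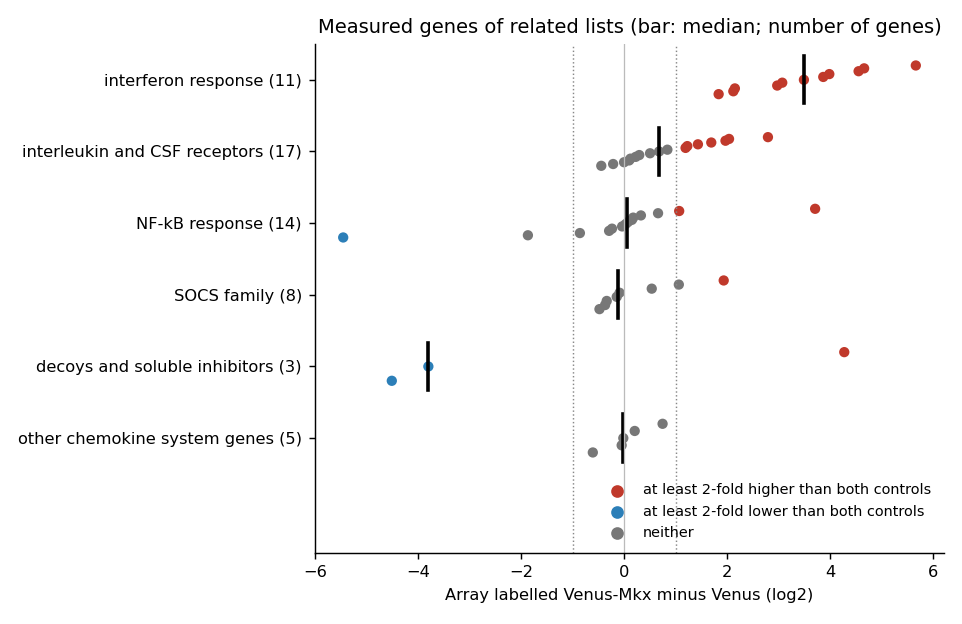
Log2 difference of the array labelled Venus-Mkx from Venus for the measured genes of 6 related lists, 1 array per condition, with the list's median as a black bar, the number of genes beside each name and dotted lines at a 2-fold difference. All 11 interferon response genes lie to the right of the line, the NF-kB response and SOCS lists centre near 0, and the inhibitors split between Il18bp on the right and Il1rn and Tnfrsf11b on the left.

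Markers of blood cells, the usual targets of these signals, were mostly below the floor. Of 9 macrophage markers, 3 were measured, and Adgre1, Ptprc, Itgam, Cd68, Fcgr1 and Cd163 were below the floor on all 3 arrays. Csf1r, at 6.62 against 5.39 in Venus and 4.45 in C3H10T1/2, and Lyz2, at 7.30 against 5.14 in Venus and 4.39 in C3H10T1/2, were called higher on the array labelled Venus-Mkx, and Cd14 was not. Cd14 read 6.49 there, against 6.99 in Venus and 6.62 in C3H10T1/2. The signals of the 9 markers, summed on a linear scale, came to 385 on that array, against 245 in Venus and 181 in C3H10T1/2. This sum adds different probe sets and takes in the 6 markers below the floor, so it does not describe each marker. The part of these markers in the results was not tested. Among T cell markers only Cd4 reached the floor, and no B cell or neutrophil marker did. Of the endothelial markers Tek alone was measured and was higher, with Pecam1, Cdh5, Kdr and Vwf below the floor, and neither measured epithelial marker was called.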

How the data were processed

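Total RNA was biotin-labelled by a 3′ IVT kit and 1 array was hybridized per condition. How probes were summarized is stated differently by the methods (MAS 5.0) and by the submitters' processing notes (RMA, version not given). The authors deposited log2 values for 45101 probe sets, normalized together, with array medians of 4.39 for Venus-Mkx and 4.34 for each control, and these were used unchanged. The number of arrays limits the precision, and signal over background limits it further below the floor. After 64 control probe sets were set aside, 34945 had 1 symbol in the platform annotation, 932 several and 9160 none. All 82 member symbols matched the GRCm38.p6 gene table, which served for names and gene order. The members and lists were chosen with earlier results of these data known. Named were all called members, those called between the controls, up to 4 other measured members of each role by mean, and up to 4 per related list; further genes were named after their values were seen. The counting step was tested on arrays made with known folds. Alternatives covered the floor, probe sets, scaling, control and fold threshold. Python 3.11.15, NumPy 2.4.6, pandas 2.3.3 and matplotlib 3.10.9 were used.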

Additional observations from a re-analysis of the deposited data

How the results depend on the processing

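The count of lower genes (2) kept within 1.5 times under every alternative run, with 3 as its highest value, without the probe sets marked _x_at or _s_at, where Cxcl1 joined Ccl9 and Cxcl12. The count of higher genes, 7, was 6 to 8 in the other settings run, but 4 with the floor at the 75th percentile (6.53% over all measured genes), 5 at 3-fold (3.75%), 12 at 1.5-fold (12%), 11 against C3H10T1/2 alone (8.74%), 11 against the mean of the 2 controls (7.97%) and 4 among genes at the floor on a control array (5.14%), a setting chosen after seeing the data that leaves out Cxcl10, Il7 and Lif by construction. The median difference of 0.29 from Venus was 0.79 against C3H10T1/2 and 0.00 with no floor, where most members are below background. The 3 genes higher in Venus than in C3H10T1/2 were 0 with the floor at the 75th percentile (1.49%), 7 at 1.5-fold (4.42%) and 1 with low values raised to the floor (1.19%), also chosen after seeing the data. Of 36 values of called genes under other probe set rules and scalings, 34 kept their call. Il16 (0.62) and Lif (0.9977) did not under the mean of all probe sets, which for Lif takes in one below the floor. No paired analysis was possible because each condition has 1 array.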

Other observations

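Values of 3 probe sets that carry a name of the set together with other symbols were left out of the counts. The probe set annotated to Il22 and Iltifb read 2.00 on all 3 arrays. The one annotated to Ccl19 and several similar loci read 3.14 on the array labelled Venus-Mkx, against 3.14 in Venus and 3.24 in C3H10T1/2. The one annotated to Il2 and Ntan1 read 9.62, against 10.09 in Venus and 10.15 in C3H10T1/2, while the probe set of Il2 alone read 2.40 on each array.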
